A study of Homo sapiens with 17 samples.

Results

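Genes of the lysosome and of autophagy were followed across human acute myeloid leukaemia (AML) cell lines treated with D9, a compound derived from DZNep, which blocks S-adenosylhomocysteine hydrolase and with it many cellular methylation reactions. The set was a fixed list of 42 genes, taken with all of their probes on an Illumina Human HT-12 V4.0 bead array. The rule itself uses no measured value. No probe was assigned to CD63, which was not analysed here, so 41 genes with 66 probes were measured. Of these probes 64 passed the filter on dim signals, out of 28394 probes kept on the whole array, and each of the 41 genes had at least 1 kept probe. Where a gene had several, the brightest kept probe stood for it.

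RNA came from 6 cell lines, TF-1, THP-1, Mono-Mac-1, KG-1a, MOLM-14 and MV-4-11, each cultured without drug or for 48 h with D9 at 1 or at 5 µM. The files used here held 17 arrays, 1 per line and condition, with no 5 µM array for MV-4-11. The study's design names TF-1, MOLM-14 and MV-4-11 as sensitive and KG-1a, THP-1 and Mono-Mac-1 as resistant to D9, and asks how the transcriptional response differs between them. The lines were the replicates, so that p-values measure the spread between lines and say nothing of repeat cultures of 1 line. That spread was taken within each class of lines, except where the doses were compared. The labels state that the medium of TF-1 was supplemented with the cytokine IL-3, and name no such supplement for the other lines.

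The lysosome is the acidic compartment in which cells break down proteins, lipids, glycogen and glycans. Its lumen is acidified by a proton pump, the vacuolar ATPase, and its limiting membrane is lined with heavily glycosylated proteins such as LAMP1 and LAMP2. Autophagy delivers cytoplasm to it: the ULK1 kinase and the Beclin 1 lipid kinase complex start the autophagosome, the ATG5 and ATG7 conjugation machinery attaches proteins of the LC3 and GABARAP families to its membrane, and receptors such as SQSTM1 (p62) load cargo. The transcription factor TFEB switches on many of these genes through a promoter element known as CLEAR. Monocytes and macrophages are rich in lysosomes, and the cathepsins and CD68 are commonly used to describe that lineage.

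The letters of the CLEAR core, TCACGTGA, and of the E-box it contains, CACGTG, were looked for in RefSeq promoters (250 bases before to 50 after a start site, assembly GRCh38.p14). Promoters of 31 of the 42 genes were searched, in 39 windows. Windows on the chromosome of CTSB, ASAH1, ATP6V1B2 and ATP6V1H were left out for the members but kept in the comparison set. These genes and CD63 were therefore not searched. No window was matched to CTSS, HEXA, PSAP, LAMP2, ATP6V0E1 and ATP6V1A, which were not searched either. The absence of all these genes does not mean that they lack a promoter or a motif. Both motifs read the same on either strand. The CLEAR core stood in 5 of 39 windows (12.8%), those of CTSA, GAA, LAMP1, MCOLN1 and ATP6V0D1, against 0.98% of 35116 RefSeq windows of the same length. Among the 22199 windows of protein-coding genes the share was 1.27%. The E-box stood in 6 windows (15.4%), the same 5 and CTSD, against 7.26% of all windows and 8.34% of the protein-coding ones. The AP-1 letters TGANTCA are also the same on both strands, and their last letters TCA can coincide with the first of a CLEAR core. They stood in 1 window, that of CD68 (2.56%, against 7.71% of all windows and 6.15% of the protein-coding ones). A match is a description of the letters and no evidence that a factor binds there. The stretches around the matches are shown because they set apart the lysosomal members with a CLEAR core from the other members searched. Capitals mark each CLEAR core or, outside it, each E-box.
CTSA (chr20:45891281-45891328, plus strand): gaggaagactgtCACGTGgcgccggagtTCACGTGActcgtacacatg
CTSD (chr11:1763957-1763986, minus strand): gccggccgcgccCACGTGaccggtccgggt
GAA (chr17:80101492-80101568, plus strand): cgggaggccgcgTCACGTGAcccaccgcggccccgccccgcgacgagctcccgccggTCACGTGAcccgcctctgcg
LAMP1 (chr13:113297035-113297256, plus strand): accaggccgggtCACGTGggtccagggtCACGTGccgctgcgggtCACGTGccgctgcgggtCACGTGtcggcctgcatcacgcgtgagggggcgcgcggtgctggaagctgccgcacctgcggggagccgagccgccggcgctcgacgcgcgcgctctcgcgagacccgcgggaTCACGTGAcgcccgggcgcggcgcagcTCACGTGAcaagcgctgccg
MCOLN1 (chr19:7522570-7522628, plus strand): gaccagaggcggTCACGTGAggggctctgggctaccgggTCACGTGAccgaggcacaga
ATP6V0D1 (chr16:67481198-67481229, minus strand): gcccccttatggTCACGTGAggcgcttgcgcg
GAA, LAMP1 and MCOLN1 thus held 2 CLEAR cores each and CTSA and ATP6V0D1 held 1, while CTSD held only the shorter E-box. The first capital letter lay 42 bases before the start site in CTSA and in MCOLN1, 47 in CTSD, 60 in ATP6V0D1, 77 in GAA and 192 in LAMP1.

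The arrays of TF-1 and THP-1 stood apart in the raw data: their 6 medians ran from 62.2 to 67.4 and their lowest intensities from 30.2 to 35.4, against medians of 53.9 to 60.5 and lowest intensities of 0 (14.4 on 1 array) on the other 11. TF-1 is a sensitive and THP-1 a resistant line, and the untreated and treated arrays of each line shared the shift. After normalisation arrays of 1 line correlated at 0.978 to 0.995 over all kept probes, against 0.841 to 0.956 between lines. Lineage markers were read in the untreated arrays as a check of the lines. The erythroid markers GATA1, HBG1 and ALAS2 were high in TF-1 alone (log2 levels of 8.60, 14.59 and 10.67). KLF1, HBG2, HBA2 and TFR2 were also highest there, but EPOR was not (7.85 in TF-1, 8.18 in MOLM-14). The progenitor marker CD34 was high in KG-1a and TF-1 (13.21 and 11.64). The lysozyme gene LYZ was higher in the 4 lines known as monocytic, THP-1, Mono-Mac-1, MOLM-14 and MV-4-11 (9.85 to 14.11), than in TF-1 (8.94) and KG-1a (6.03). The monocyte marker CD14 was high in MOLM-14 (11.40) and THP-1 (8.07) and at 6.33 to 6.49 in the other 4 lines. Of the 9 measured monocyte markers, ITGAM and VCAN did not follow the division into monocytic and other lines. ITGAM was highest in TF-1 (10.00) and 6.26 in MV-4-11, and VCAN was 9.23 in KG-1a and 5.93 in MV-4-11. KG-1a also carried the T-cell gene CD3D (12.74, at most 6.49 elsewhere). The T-cell gene CD2 was at 6.51 there, beside a median of 6.48 over the lines.

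The lines differed widely in the resting levels of these genes: the median of their ranges over the 6 untreated lines was 2.11 on the log2 scale, and the median of their largest absolute effects in a treated array was 0.694. Levels are given as log2 of the background-corrected, quantile-normalised intensity, and are compared only between lines for 1 gene at a time. MOLM-14 had the highest untreated level for 21 of the 41 genes and THP-1 for 9, and the lowest level fell to KG-1a for 14 genes and to TF-1 for 13. For 10 of 41 genes (24.4%) all 4 monocytic lines lay above both TF-1 and KG-1a, where 11% of all kept probes did. For 3 genes, ASAH1, ATP6V1A and GABARAPL2, all 4 lay below, where 9.21% of all kept probes did. The median difference between the monocytic lines and the other 2 was 0.446 over the members and 0.0113 over all kept probes. In bulk RNA of this kind, fewer cells of a type and less RNA per cell cannot be told apart.

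The widest spread was that of CD68, the sialomucin of endosomes and lysosomes used as a macrophage marker. Its untreated level was 6.83 in KG-1a, 10.88 in TF-1, 11.12 in MV-4-11, 11.21 in THP-1, 11.51 in Mono-Mac-1 and 13.90 in MOLM-14. KG-1a stood apart at a level near those of dim probes, since the filter lay at 6.159. The aminopeptidase cathepsin H (CTSH) was measured at 6.21 for KG-1a, 7.68 for MV-4-11, 8.04 for Mono-Mac-1, 9.69 for THP-1, 11.10 for TF-1 and 12.09 for MOLM-14. Cathepsin L (CTSL1, now named CTSL), an endopeptidase, was highest in TF-1 at 11.76, followed by 10.53 in MOLM-14 and 10.09 in THP-1, and was lowest in MV-4-11 (7.12) and KG-1a (7.0). These 2 proteases were thus high in the erythroid line TF-1 as well as in MOLM-14, and did not follow the division into monocytic and other lines. Cathepsin Z (CTSZ) did: it ran from 7.41 to 9.11 in the monocytic lines against 5.94 in TF-1 and 5.86 in KG-1a. TPP1, the tripeptidyl peptidase lost in a childhood form of neuronal ceroid lipofuscinosis, ran from 10.36 to 11.64 in the monocytic lines against 8.67 in TF-1 and 9.0 in KG-1a.

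Prosaposin (PSAP), the precursor of the activators of sphingolipid breakdown, was measured at 10.07 for MV-4-11, 10.55 for KG-1a, 11.55 for Mono-Mac-1, 11.56 for THP-1, 12.78 for TF-1 and 13.56 for MOLM-14. Among the autophagy genes, ATG7, the activating enzyme of the LC3 and ATG12 conjugation systems, was 7.75 in TF-1 and in KG-1a and 9.17 to 10.90 in the 4 monocytic lines. The initiating kinase ULK1 was highest in THP-1 (11.47) and Mono-Mac-1 (10.70), followed by MOLM-14 (9.87), KG-1a (9.75), MV-4-11 (8.87) and TF-1 (8.41). The resistant lines THP-1 and Mono-Mac-1 lay above all 3 sensitive lines for ULK1, and KG-1a lay just below MOLM-14. TFEB was dim everywhere, from 6.11 in KG-1a to 6.60 in THP-1, close to the filter level.

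**Figure D1:**
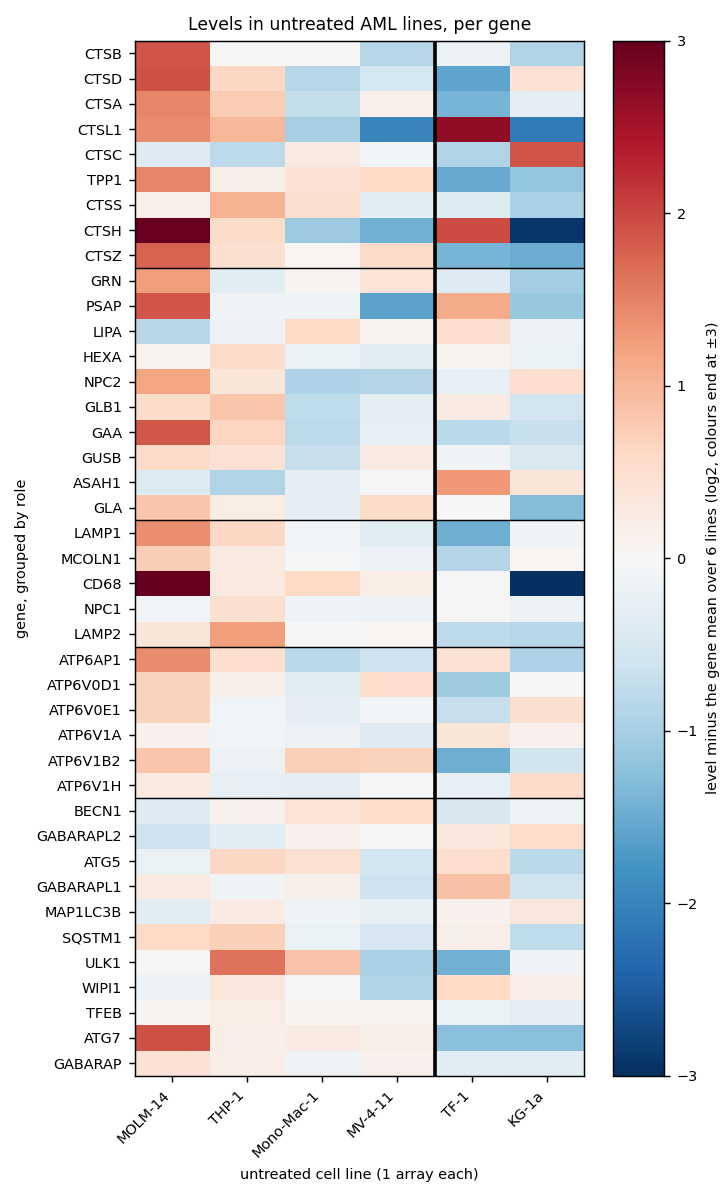
Heat map of untreated levels for the 41 genes (rows, grouped by role) in 6 cell lines (columns, 1 array each), as log2 level minus the gene's mean over the lines, so that colours compare lines within a row. The column of MOLM-14 is red for most genes, with CD68 reaching 13.90 there and 6.83 in KG-1a.

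Whether resting levels set the sensitive lines apart from the resistant lines was tested by limma's moderated test on the 6 untreated arrays, with Benjamini-Hochberg adjustment over all 28394 probes. No member passed an adjusted p of 0.1, and neither did any probe of the array (0%). At an unadjusted p under 0.05 there were 600 probes (2.11%) and 1 member of 41, ULK1, which was lower in the sensitive lines by 1.59 on the log2 scale (95% interval -3.02 to -0.16, limma adjusted p = 1). Intervals of single genes reached from 0.45 to 3.85 to either side of the estimate, with a median of 1.25.

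D9 raised 9 of the 41 genes over the 6 lines and lowered none of them. The 9 were the proteases CTSA, CTSB and CTSD, the hydrolases HEXA and LIPA, and the autophagy genes MAP1LC3B, GABARAPL1, BECN1 and ATG5. The share of 22% compares with 2.79% of all kept probes called higher and 2.81% called lower at the same limma adjusted p under 0.1. The median effect was 0.193 on the log2 scale over the 41 genes and -0.00261 over all kept probes, with 32 genes above 0 and 9 below. Of the 5 genes with a CLEAR core, among the 31 whose promoters were searched, only CTSA was called. The mean effects of LAMP1, MCOLN1, ATP6V0D1 and GAA were 0.23, 0.19, 0.18 and 0.15. Mean effects over the 6 lines ran from -0.176 (GLA) to 0.706 (CTSB, 1.63-fold) on the brightest probes, while single lines reached 1.54 on the log2 scale (CTSB in Mono-Mac-1 at 5 µM). An unadjusted p under 0.05 was found for 16 of the 41 genes and for 19.1% of all kept probes. The number of calls depended on single lines. Leaving out Mono-Mac-1 gave 1 call (CTSB) and leaving out MV-4-11 gave 2, against 4 without TF-1, 5 without THP-1, 5 without MOLM-14 and 6 without KG-1a. These counts include genes that were not among the 9: GABARAPL2 without TF-1, GRN without THP-1 and PSAP without KG-1a. Over all probes the calls fell from 1591 to 108 without Mono-Mac-1 and to 584 without MV-4-11. With both TF-1 and THP-1 left out, the lines whose raw arrays stood apart, no member and no probe of the array passed limma's adjusted p on the other 4 lines. There 31 of the 41 genes lay above 0 with a median of 0.175, and 16 members (15 of them higher) and 15.6% of all kept probes had an unadjusted p under 0.05.

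**Figure D2:**
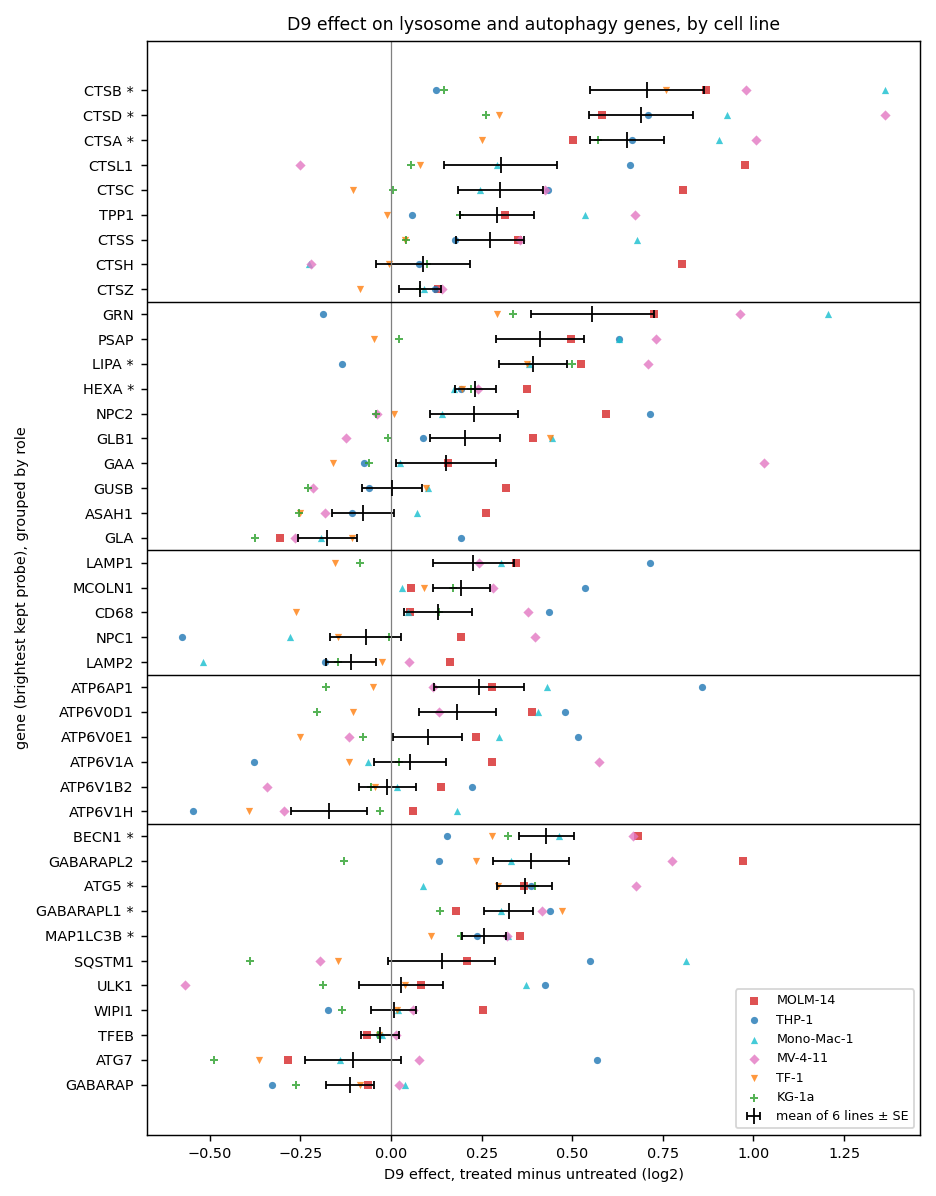
D9 effect (mean of treated arrays minus untreated, log2, horizontal axis) for each of the 41 genes, grouped by role and ordered by effect; coloured points are the 6 lines and black bars the mean of the lines ± SE from limma. Asterisks mark the 9 genes with an adjusted p under 0.1, which lie between 0.233 (HEXA) and 0.706 (CTSB).

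The proteases had the highest median effect of the 5 roles, and no test compared the roles. All 9 had a mean effect above 0, with a median of 0.301, and 3 of the 9 passed the test. Cathepsin A (CTSA, probe ILMN_1719286) is a serine carboxypeptidase that also protects beta-galactosidase and neuraminidase in a complex. Its untreated level ran from 7.39 in TF-1 over a median of 8.71 to 10.25 in MOLM-14. At 1 µM D9 it lay above the untreated array of its own line by 0.21 in TF-1, 0.39 in KG-1a, 0.44 in MOLM-14, 0.51 in THP-1, 0.72 in Mono-Mac-1 and 1.01 in MV-4-11. At 5 µM the difference was 0.29 in TF-1, 0.56 in MOLM-14, 0.75 in KG-1a, 0.82 in THP-1 and 1.09 in Mono-Mac-1. All 11 treated arrays thus lay above their own untreated array, by least in TF-1. The mean effect was 0.65 ± 0.10 (SE, 6 lines, 1.57-fold, limma adjusted p = 0.0363), the lowest p among the members. The call was lost only when Mono-Mac-1 was left out, among the 6 lines.

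Cathepsin D (CTSD, probe ILMN_1674038), the main aspartic protease of the lysosome, ran from 7.54 in TF-1 to 11.03 in MOLM-14 before treatment. At 1 µM it rose by 0.10 in KG-1a, 0.24 in TF-1, 0.44 in THP-1, 0.52 in MOLM-14, 0.61 in Mono-Mac-1 and 1.36 in MV-4-11. At the higher dose the differences were 0.36 in TF-1, 0.42 in KG-1a, 0.65 in MOLM-14, 0.97 in THP-1 and 1.24 in Mono-Mac-1. The mean was 0.69 ± 0.14 (SE, 6 lines, limma adjusted p = 0.0602, 1.61-fold). It was higher in 11 of 11 treated arrays, and both TF-1 and KG-1a lay below the 4 monocytic lines. Without THP-1 or without Mono-Mac-1 it was no longer called.

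Cathepsin B (CTSB), a cysteine protease, had the largest mean effect of the list. At 1 µM the brighter probe rose by 0.09 for KG-1a, 0.18 for THP-1, 0.57 for TF-1, 0.71 for MOLM-14, 0.98 for MV-4-11 and 1.19 for Mono-Mac-1. At 5 µM the differences were 0.07 in THP-1, 0.20 in KG-1a, 0.95 in TF-1, 1.02 in MOLM-14 and 1.54 in Mono-Mac-1. The lines fell into KG-1a and THP-1 with little change, both resistant, and 4 lines with larger increases, the 3 sensitive lines and the resistant Mono-Mac-1. The mean was 0.71 ± 0.16 (SE, 6 lines, limma adjusted p = 0.0703, 1.63-fold) on probe ILMN_2359742 and 0.93 ± 0.19 (adjusted p = 0.0577) on the dimmer probe ILMN_1696360, with 11 of 11 treated arrays higher on both. The brighter probe lost its call without TF-1, without MOLM-14 or without MV-4-11.

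The other 6 proteases did not pass the test. Their mean effects were 0.30 for CTSL1, 0.30 for the dipeptidyl peptidase cathepsin C (CTSC), 0.29 for TPP1, 0.27 for cathepsin S (CTSS), 0.09 for CTSH and 0.08 for CTSZ. CTSL1 lay between -0.25 (MV-4-11) and 0.68 (MOLM-14) at 1 µM and reached 1.27 in MOLM-14 at 5 µM, so that its mean rested largely on MOLM-14 and THP-1. The 4 probes of CTSC did not agree: 3 had means of 0.17 to 0.30 and the fourth -0.16.

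Of the 10 other hydrolases and activators 2 were called, and the median effect was 0.217. Acid lipase (LIPA), which splits cholesteryl esters and triglycerides in the lysosome, had untreated levels of 9.11 in MOLM-14 to 10.56 in Mono-Mac-1. At 1 µM it was lower than untreated by 0.35 in THP-1 (an effect of -0.35) and higher by 0.37 in Mono-Mac-1, 0.43 in MOLM-14, 0.49 in KG-1a, 0.58 in TF-1 and 0.71 in MV-4-11. At the higher dose the effects were 0.08 in THP-1, 0.17 in TF-1, 0.39 in Mono-Mac-1, 0.51 in KG-1a and 0.61 in MOLM-14. THP-1 was the exception at 1 µM and had the lowest effect at 5 µM, next to TF-1, and the mean of 0.39 ± 0.09 (SE, 6 lines, limma adjusted p = 0.0805, 1.31-fold) kept its call only when THP-1 was the line left out. HEXA, the alpha subunit of beta-hexosaminidase, which degrades GM2 ganglioside, was dim (6.23 in MV-4-11 to 7.13 in THP-1) but even: its 1 µM effects ran from 0.17 to 0.30 with a median of 0.21, and its 5 µM effects were 0.09 in THP-1, 0.18 in Mono-Mac-1, 0.21 in TF-1, 0.27 in KG-1a and 0.45 in MOLM-14. Its mean was 0.23 ± 0.06 (SE, 6 lines, limma adjusted p = 0.0796), higher in 11 of 11 arrays, and it was not called with any of the 6 lines left out.

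Progranulin (GRN), a secreted protein that is cut into granulins in the lysosome, had the largest effect of this group and did not pass the threshold, at 0.56 ± 0.17 (SE, 6 lines, limma adjusted p = 0.134). Its 1 µM effects were -0.18 in THP-1, 0.25 in KG-1a, 0.26 in TF-1, 0.57 in MOLM-14, 0.93 in Mono-Mac-1 and 0.96 in MV-4-11. At 5 µM they were -0.20 for THP-1, 0.33 for TF-1, 0.42 for KG-1a, 0.88 for MOLM-14 and 1.48 for Mono-Mac-1. THP-1 was the single line with lower values, as for LIPA at 1 µM, and without it GRN was called. PSAP had a mean of 0.41 ± 0.12 (adjusted p = 0.126), with effects of -0.07 and -0.02 in TF-1 and 0.29 to 0.73 in the treated arrays of the 4 monocytic lines. KG-1a gave -0.24 at 1 µM and 0.28 at 5 µM, and PSAP was called when KG-1a was left out. Acid alpha-glucosidase (GAA), which digests glycogen and carries 2 CLEAR cores in its promoter, had 1 µM effects of -0.05 to 0.23 in 5 lines and 1.03 in MV-4-11. Its mean of 0.15 ± 0.14 did not pass the test (adjusted p = 0.634). The alpha-galactosidase gene GLA had the lowest mean of the list, -0.18 ± 0.08 (adjusted p = 0.302), with 8 of 11 treated arrays below untreated.

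None of the 5 measured membrane proteins was called on its brightest probe, and their median effect was 0.130. LAMP1, the most used marker of the lysosomal membrane, had 1 µM effects of -0.15 in KG-1a, -0.10 in TF-1, 0.16 in MOLM-14, 0.23 in Mono-Mac-1, 0.24 in MV-4-11 and 0.76 in THP-1. At the higher dose they were -0.21 for TF-1, -0.02 for KG-1a, 0.38 for Mono-Mac-1, 0.53 for MOLM-14 and 0.66 for THP-1. The 4 monocytic lines lay above 0 at each dose given to them, MV-4-11 at 1 µM alone, and the other 2 lay below it at both doses. The mean of 0.23 ± 0.11 did not pass the test (SE, 6 lines, limma adjusted p = 0.330). The calcium channel mucolipin 1 (MCOLN1) had effects of -0.15 in Mono-Mac-1 to 0.52 in THP-1 at 1 µM and 0.12 to 0.55 at 5 µM, with a mean of 0.19 ± 0.08 (adjusted p = 0.238). NPC1, the cholesterol exporter of the lysosomal membrane, gave -0.79 in THP-1 and 0.40 in MV-4-11 at 1 µM, and its mean was -0.07 ± 0.10.

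LAMP2, which is made in several splice forms with different tails, was measured by 6 probes that disagreed. The 2 brightest had means of -0.11 ± 0.07 (ILMN_2279961, adjusted p = 0.465) and -0.06 ± 0.08 (ILMN_1752351, adjusted p = 0.788). Of the 4 dimmer probes 3 had means of 0.23 to 0.32 and did not pass, and ILMN_1917290 was called at 0.63 ± 0.11 (SE, 6 lines, limma adjusted p = 0.0397), higher in 11 of 11 treated arrays. In Mono-Mac-1 the probes differed most: the brightest gave -0.52 and ILMN_1917290 gave 1.06. A single direction for LAMP2 therefore cannot be given from these arrays. Over all members, 12 of 64 kept probes were called higher and 0 lower at an adjusted p under 0.1. Beside the 9 brightest probes these were the further probes of CTSB and LAMP2 just named and ILMN_2046315 of GABARAPL2.

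**Figure D3:**
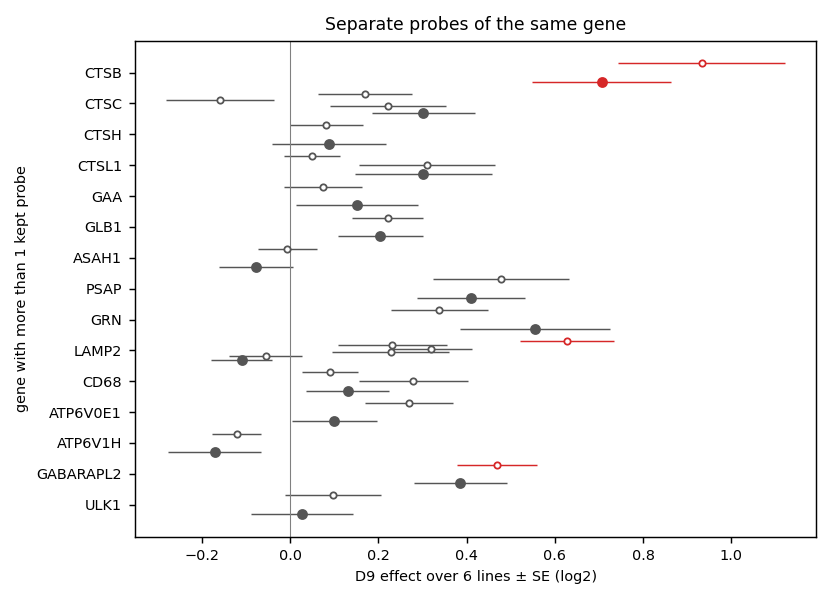
Mean D9 effect over 6 lines ± SE (log2, horizontal axis) for each kept probe of the genes with more than 1; filled points are the brightest probe of a gene and red points have an adjusted p under 0.1. The probes of CTSB lie together at 0.71 and 0.93, while those of LAMP2 spread from -0.11 to 0.63.

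Of the 6 proton pump genes 0 passed the limma test and 0 had an unadjusted p under 0.05, where 19.1% of all kept probes had such a p. Their median effect was 0.0767. ATP6AP1, an accessory subunit that guides the assembly and sorting of the pump, had 1 µM effects of -0.37 in KG-1a, -0.22 in TF-1, 0.11 in MV-4-11, 0.17 in MOLM-14, 0.35 in Mono-Mac-1 and 0.79 in THP-1. At 5 µM they were 0.01 in KG-1a, 0.12 in TF-1, 0.39 in MOLM-14, 0.51 in Mono-Mac-1 and 0.93 in THP-1. The mean was 0.24 ± 0.12 (SE, 6 lines, limma adjusted p = 0.356). ATP6V0D1, a subunit of the membrane sector whose promoter carries a CLEAR core, was likewise lowest in KG-1a and TF-1 at both doses, and ran from -0.28 in KG-1a to 0.35 in Mono-Mac-1 at 1 µM and from -0.13 in KG-1a to 0.71 in THP-1 at 5 µM, with a mean of 0.18 ± 0.11 (adjusted p = 0.421). The other 4 subunits had means of -0.17 (ATP6V1H) to 0.10 (ATP6V0E1).

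The autophagy genes divided by family member. Of the 11 genes 4 were called, all higher, and the median effect was 0.140. Beclin 1 (BECN1), the scaffold of the lipid kinase complex that nucleates autophagosomes, ran from 8.40 in TF-1 to 9.41 in MV-4-11 before treatment. At 1 µM it rose by 0.18 for THP-1, 0.25 for KG-1a, 0.34 for TF-1, 0.34 for Mono-Mac-1, 0.52 for MOLM-14 and 0.67 for MV-4-11. At the higher dose the differences were 0.13 in THP-1, 0.22 in TF-1, 0.40 in KG-1a, 0.58 in Mono-Mac-1 and 0.85 in MOLM-14. Every treated array lay above its untreated array, and the mean of 0.43 ± 0.08 (SE, 6 lines, 1.35-fold, limma adjusted p = 0.0439) was one of 2 member effects, with CTSA, that also passed 0.05. It was lost without Mono-Mac-1 or without MV-4-11. ATG5, a core part of the conjugation enzyme that lipidates LC3, was higher by 0.02 in Mono-Mac-1, 0.20 in TF-1, 0.28 in MOLM-14, 0.34 in KG-1a, 0.38 in THP-1 and 0.68 in MV-4-11 at 1 µM. At 5 µM it was higher by 0.16 in Mono-Mac-1 and by 0.39 to 0.45 in the other 4 lines. The mean was 0.37 ± 0.08 (SE, 6 lines, limma adjusted p = 0.0581), and the call held without MOLM-14 but with none of the other lines left out.

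Among the ubiquitin-like proteins that coat the autophagosome, GABARAPL1 rose by 0.07 in KG-1a, 0.11 in MOLM-14, 0.19 in Mono-Mac-1, 0.27 in TF-1, 0.38 in THP-1 and 0.42 in MV-4-11 at 1 µM. At 5 µM the differences were 0.20 for KG-1a, 0.25 for MOLM-14, 0.41 for Mono-Mac-1, 0.50 for THP-1 and 0.67 for TF-1. Its mean was 0.32 ± 0.07 (SE, 6 lines, limma adjusted p = 0.0613), and TF-1 was the highest line at 5 µM but not at 1 µM. The call of GABARAPL1 held without KG-1a or without MOLM-14, and was lost without TF-1, THP-1, Mono-Mac-1 or MV-4-11. MAP1LC3B, which encodes LC3B, was changed by -0.06 for TF-1 and by 0.04 to 0.32 in the other lines at 1 µM. At 5 µM it was changed by 0.28 for TF-1, 0.34 for KG-1a, 0.40 for THP-1, 0.44 for Mono-Mac-1 and 0.45 for MOLM-14. Its mean was 0.26 ± 0.06 (SE, 6 lines, limma adjusted p = 0.0764), a call that was lost with any of the 6 lines left out. GABARAPL2 had a mean of 0.39 ± 0.11 just outside the threshold (adjusted p = 0.106), while its dimmer probe was called at 0.47 ± 0.09 (adjusted p = 0.0523). GABARAP itself had a mean of -0.11 ± 0.07 (adjusted p = 0.426) with 4 of 11 arrays higher.

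The cargo receptor SQSTM1 was split between lines. Its 1 µM effects were -0.52 in KG-1a, -0.36 in TF-1, -0.20 in MV-4-11, 0.16 in MOLM-14, 0.71 in Mono-Mac-1 and 0.71 in THP-1, and at 5 µM they ran from -0.26 in KG-1a to 0.92 in Mono-Mac-1. The mean of 0.14 ± 0.15 was smaller than its error (adjusted p = 0.693). ULK1 ran from -0.57 in MV-4-11 to 0.69 in THP-1 at 1 µM and had a mean of 0.03 ± 0.12 (adjusted p = 0.939). TFEB, at its low level, gave -0.03 ± 0.05 with treated effects of -0.16 to 0.11. ATG7 and WIPI1, which binds the lipid made by the Beclin 1 complex, had means of -0.11 and 0.01.

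The response differed in extent from line to line. At 1 µM, 36 of the 41 genes were above untreated in MOLM-14, 32 in Mono-Mac-1, 29 in MV-4-11 and 28 in THP-1, against 21 in KG-1a and 18 in TF-1, while between 49.3% and 50.1% of all kept probes were above untreated in each line. The median effect at 1 µM was 0.25 for MOLM-14, 0.239 for MV-4-11, 0.189 for Mono-Mac-1 and 0.175 for THP-1, and 0.00184 for KG-1a and -0.0321 for TF-1. At the higher dose the medians were 0.385 in MOLM-14, 0.29 in THP-1, 0.279 in Mono-Mac-1, 0.0663 in TF-1 and 0.00904 in KG-1a. The 4 monocytic lines thus had higher medians than TF-1 and KG-1a at each dose given to them. This division of the effects was chosen after their values were seen and has no test. For 11 of the 41 genes (26.8%) the effects of all 4 monocytic lines lay above those of TF-1 and KG-1a, where 7.16% of all kept probes did. They were CTSC, CTSD, CTSS, CTSZ, ASAH1, PSAP, LAMP1, ATP6V0D1, ATP6AP1, MAP1LC3B and ATG7, of which 2 were called over the 6 lines. For 0 of the members did all 4 lie below, where 6.31% of all kept probes did.

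**Figure D4:**
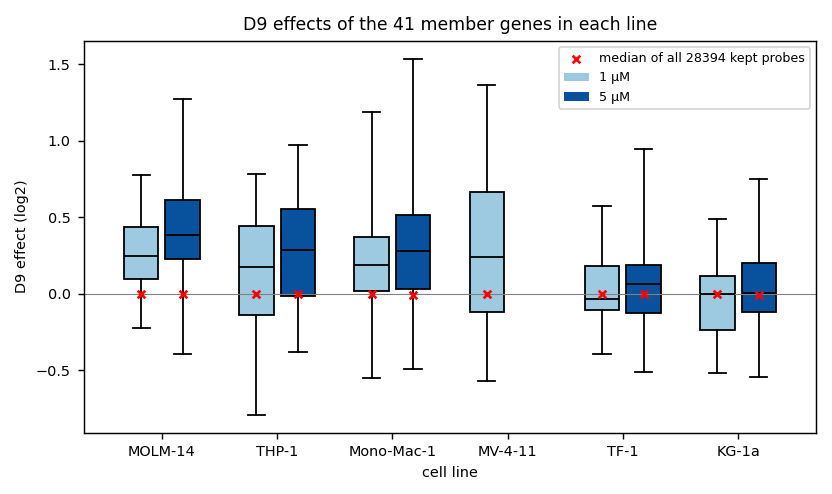
D9 effects (log2) of the 41 genes in each cell line at 1 µM (light) and 5 µM (dark); boxes show quartiles and the median, whiskers the full range, and red crosses the median of all 28394 kept probes. Medians lie between 0.175 and 0.385 in the 4 monocytic lines and between -0.0321 and 0.0663 in TF-1 and KG-1a.

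Markers of other states were read beside these genes. Of the 9 measured monocyte markers 8 had a mean effect above 0 (median 0.213). Only 1 was called (11.1%), beside 2.79% of all kept probes called higher. It was CSF1R, the receptor for macrophage colony-stimulating factor, at 0.37 (limma adjusted p = 0.0568). The mean log2 level of the 9 markers ran from 6.61 to 10.03 (median 8.07) over the untreated arrays, from 6.69 to 10.51 (median 8.34) at 1 µM and from 6.64 to 10.47 (median 8.96, without MV-4-11) at 5 µM. The 5 µM median covers fewer lines and is not like the other medians. Untreated, at 1 and at 5 µM the mean was 8.22, 8.89 and 8.96 in Mono-Mac-1 and 8.77, 9.03 and 9.25 in THP-1. It was 10.03, 10.51 and 10.47 in MOLM-14, 6.61, 6.69 and 6.64 in KG-1a, and 6.93, 6.83 and 6.77 in TF-1. MV-4-11 had 7.91 untreated and 7.78 at 1 µM. The level of the 9 markers summed on the linear scale ran from 1240 to 19700 untreated, from 1170 to 33300 at 1 µM and from 1090 to 34200 at 5 µM. CD14, MNDA and FCGR1A were near the level of dim probes in TF-1 and KG-1a, at 5.84 to 6.43 untreated. CD14 was about as dim in Mono-Mac-1 (6.45) and MV-4-11 (6.49), and MNDA in MV-4-11 (6.43). Other monocyte markers were not dim in these lines: ITGAM was 10.00 and LYZ 8.94 in TF-1, and VCAN was 9.23 in KG-1a. The 8 erythroid, 5 progenitor, 2 T-cell and 3 B-cell markers measured gave 0 limma calls. An unadjusted p under 0.05 was found for 4 of the 5 progenitor markers, 2 of the 9 monocyte markers and 0 of the others, beside 19.1% of all kept probes. The median effect of the progenitor markers was 0.379, above that of the monocyte markers, with KIT at 0.46, GATA2 at 0.45, MSI2 at 0.38, SPINK2 at 0.18 and CD34 at -0.09. The part of these markers in the result was not tested.

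A step from 1 to 5 µM was measured in the 5 lines with both doses. At 5 µM 31 of the 41 genes were on average higher than at 1 µM, with a median step of 0.109 against 0.000154 over all kept probes. No member passed limma's adjusted p under 0.1, where 0.271% of all probes were called higher and 0.261% lower. At an unadjusted p under 0.05 there were 14 members, all higher at 5 µM, and 3234 probes (11.4%) in all. The smallest adjusted p was that of MAP1LC3B, whose step was 0.28 ± 0.06 (SE, 5 lines, limma adjusted p = 0.117), followed by CTSD at 0.35 ± 0.08 (adjusted p = 0.137) and ATP6AP1 at 0.25 ± 0.07 (adjusted p = 0.169). For 11 of 41 genes (26.8%) the 5 µM array lay above the 1 µM array in 5 of 5 lines, as it did for 5.24% of all kept probes. These were CTSA, CTSD, TPP1, GLB1, PSAP, NPC2, ATP6V0D1, ATP6AP1, MAP1LC3B, GABARAPL1 and ATG5. HEXA and LIPA, although called over the lines, had steps of 0.02 and 0.05.

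**Figure D5:**
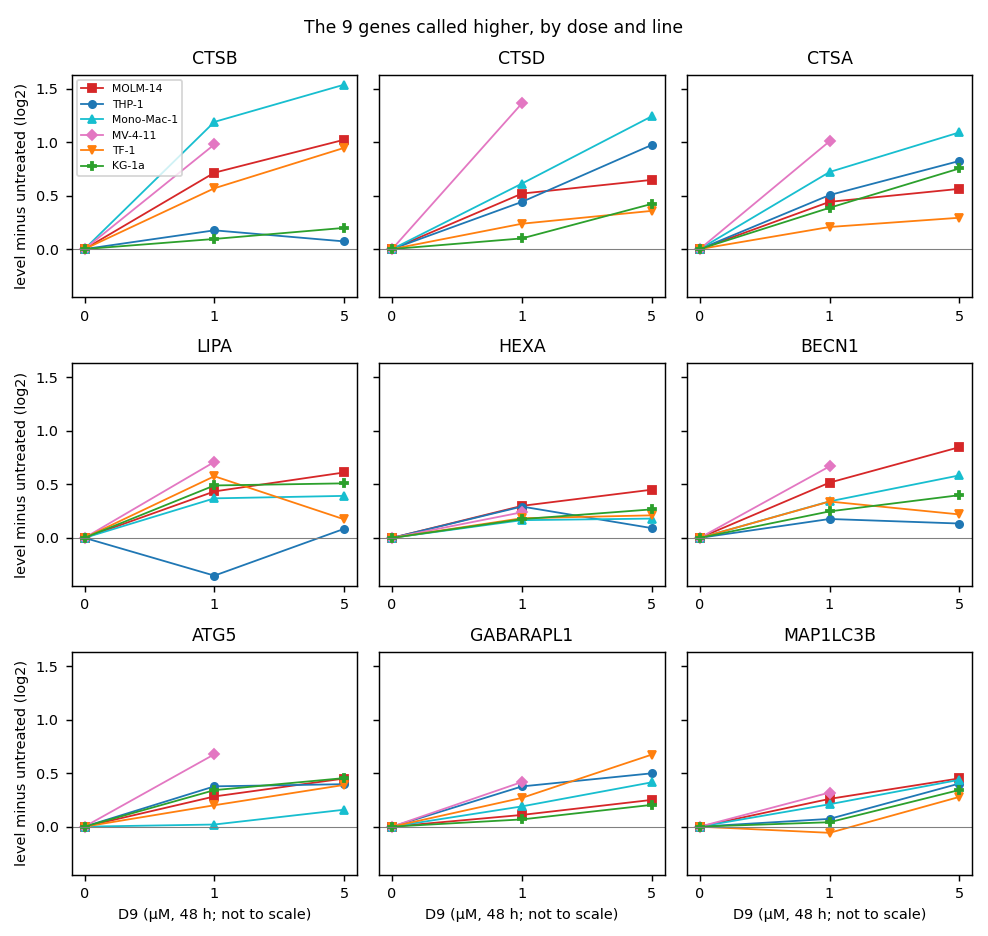
Level minus untreated (log2, vertical axis) at 0, 1 and 5 µM D9 for the 9 genes called higher, 1 line per cell line with a single array at each dose and no 5 µM array for MV-4-11. CTSB rises to 1.54 in Mono-Mac-1 and stays at 0.07 in THP-1, and LIPA is below 0 in THP-1 at 1 µM alone.

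No member and no probe of the array (0%) passed limma's adjusted p under 0.1 for the difference of the D9 effects between sensitive and resistant lines, and the smallest adjusted p was 0.999. The study compared the classes by another method, significance analysis of microarrays, and reported genes whose response to D9 differed between them at the same false discovery rate. That method was not run here, and why the outcomes differ was not tested. At an unadjusted p under 0.05 there were 2 members, GABARAPL2, with an effect 0.55 higher in the sensitive lines (95% interval 0.06 to 1.04), and LAMP2, 0.34 higher (0.02 to 0.67), among 752 probes (2.65%). The LAMP2 value is that of its brightest probe alone, and the probes of this gene disagreed in direction. That probe was lowest in the resistant line Mono-Mac-1 (-0.52), where a dimmer probe rose. The difference was -0.13 for CTSA (-0.60 to 0.35), 0.12 for CTSD (-0.55 to 0.78), 0.32 for CTSB (-0.41 to 1.06) and 0.23 for BECN1 (-0.13 to 0.59). The median over the 41 genes was 0.0399, against -0.00289 over all kept probes. Intervals reached 0.45 to either side for the median member and 0.79 for the widest, so a class difference as large as most of the effects themselves was not detectable with 3 lines a class.

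Other genes of the same pathways were read from 5 lists, 108 genes in all, of which 96 had a kept probe. Over the 6 lines 9 of the 96 were called higher and 1 lower, beside 2.79% and 2.81% of all kept probes, and their median effect was 0.105. Among 21 other lysosomal hydrolases 4 rose and 1 fell, among 18 other membrane and sorting genes 4 rose, and among 17 genes of nutrient signalling at the lysosome 1 rose. None of 10 further proton pump subunits and none of 30 further autophagy factors was called, with unadjusted p under 0.05 for 1 and 9 of them, where 19.1% of all kept probes had such a p.

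The single gene that fell was GALNS, the sulfatase that removes sulfate from keratan and chondroitin sulfate, at -0.56 ± 0.10 (SE, 6 lines, limma adjusted p = 0.0466) and lower in 11 of 11 treated arrays. Its effects ran from -0.88 in MOLM-14 to -0.12 in MV-4-11 at 1 µM, so that it moved against the other lysosomal enzymes called. Cathepsin K (CTSK), a collagen-degrading protease, rose by 0.51 ± 0.12 (adjusted p = 0.0713), most in Mono-Mac-1 (1.28 at 5 µM). Acid sphingomyelinase (SMPD1) rose by 0.40 ± 0.09 (adjusted p = 0.0762) on its brighter probe, with 0.16 on the dimmer one. Among the membrane and sorting genes GNPTAB, the enzyme that starts the mannose 6-phosphate tag on lysosomal hydrolases, rose by 0.51 ± 0.12 (adjusted p = 0.0812). SCARB2, the receptor that carries beta-glucocerebrosidase to the lysosome, rose by 0.39 ± 0.09 (adjusted p = 0.0701). OSTM1, the partner of the lysosomal chloride exchanger, rose by 0.39 ± 0.08 (adjusted p = 0.0537). LAMTOR2, part of the Ragulator scaffold that holds mTORC1 at the lysosome, rose by 0.44 ± 0.08 (adjusted p = 0.0397), with 0.56 on its second probe. For the dose step 1 pathway gene was called, the sialidase NEU1, named here because its value was seen, at 0.35 ± 0.08 higher at 5 than at 1 µM (5 lines, limma adjusted p = 0.0999).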

How the data were processed

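Biotin-labelled cRNA was hybridised to Illumina HT-12 V4.0 bead arrays. The deposited raw table holds probe intensity summarised by the authors in GenomeStudio (version: not given in the sources used here). It was not normalised between arrays, held no detection p-values, and had values from 0 to 34388.2. The log2 values of the other deposited table were made by the authors in GeneSpring. They matched log2 intensity (values under 1 set to 1) minus each array's 75th percentile and each probe's median, with a median absolute difference of 7.83e-07, and array medians ran from -0.211 to 0.259. It served as an alternative. All columns had a sample.

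Raw intensities were background-corrected (normexp, offset 50), quantile-normalised and put on the log2 scale in limma 3.58.1 (R 4.3.3). Probes with a mean above the 40th percentile (6.159) were kept, 28394 of 47323. The number of arrays limits the precision. Gene symbols came from the platform annotation: 30113 probes had 1 symbol, 8 several and 17202 none, and 30074 symbols were updated by gene number. Sequences came from RefSeq (GRCh38.p14).

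The untreated log2 value of a line was taken from the mean of its treated arrays to give the line's effect, and MV-4-11 entered with 1 µM alone. The 4 limma fits (lmFit, eBayes) had 4 residual degrees of freedom each, took 1 value per line, and were two-sided. All but the dose step had the class of the line in the model, and the D9 effect was the mean of both class means. P-values were adjusted by Benjamini-Hochberg over all kept probes, with calls at an adjusted p under 0.1. The study used this false discovery rate with another method, significance analysis of microarrays. Named genes were all called members, the 2 with the largest effect in each role, LAMP1, TFEB, SQSTM1, MAP1LC3B, ULK1 and BECN1, and up to 3 called genes of each pathway list, and other members were given by range or where a line or probe stood apart. Genes, lists and tests were chosen with earlier results of these data known. The scripts were tested on simulated data. No chip or date was named in the files, so no batch could be tested.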

Additional observations from a re-analysis of the deposited data

Results flagged for a closer look

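A single line stood apart from the others, by a gap larger than Dixon's 95% limit of the range, in 8 of 123 sets of values of the 41 genes (untreated levels, 1 µM effects and 5 µM effects). Chance alone marks about 1 set in 20. Untreated MOLM-14 had a CTSB level of 12.06 where the next line had 10.18, and untreated THP-1 an NPC1 level of 9.113 where the next had 8.648. At 1 µM the effect on CTSZ was -0.1354 in TF-1 and 0.09333 or more in the other 5 lines, that on LIPA was -0.3532 in THP-1 and 0.3695 or more elsewhere, and that on LAMP2 was -0.549 in Mono-Mac-1 and -0.164 or more elsewhere. GAA rose by 1.028 in MV-4-11 at 1 µM and by at most 0.2272 in the other lines. At 5 µM the effect on MCOLN1 was 0.5523 in THP-1, above 0.2077 in the next line, and that on ATG5 was 0.1585 in Mono-Mac-1, below 0.3903 in the next. Each rests on 1 array of the line and its untreated array.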

How the results depend on the processing

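The 9 calls over the 6 lines became 5 with median scaling, 2 at a threshold of 0.05, 2 with the 1 µM arrays alone, 0 without pairing by line, 15 with every array and the line as a block, 14 by the methods' t-test at an unadjusted p under 0.05 (13 higher, 1 lower) and 0 by that test after Benjamini-Hochberg. Leaving out 1 line gave 1 to 6 calls, and leaving out both TF-1 and THP-1, a choice made after seeing the data, gave 0 on 4 lines, with no probe of the array called. All other settings gave 6 to 11. Between 28 and 34 genes lay above 0 over all of these settings. Without pairing 2 probes of the whole array were called, and 72 by the t-test after adjustment. The dose step went from 0 member calls to 1 without background correction, 1 with no filter and 10 by the methods' t-test at an unadjusted p under 0.05. The 2 class comparisons had 0 member calls under every setting run. Of 360 values of the 19 named genes under alternatives, 261 kept direction and side of the threshold, 79 lost and 13 gained a call, and 7 changed sign, all of them ULK1: -0.00957 in the authors' values, -0.0216 with median scaling, -0.0756 without TF-1 and THP-1, and a range of -0.031 to 0.132 with 1 line left out. The cause was not tested. Signals near the filter level (TFEB, HEXA) limit what can be read for dim genes.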
